A study of Mus musculus with 8 samples.

Results

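Hedgehog signalling was described in the gravid mouse uterus by the genes of its core pathway, Ihh, Ptch1, Smo, Gli1, Gli2, Gli3, Hhip and Sufu. Every probe set that the array annotation paired with one of these 8 symbols was taken, whatever its values. They came to 14 of the 28000 probe sets analysed, for 7 of the 8 genes, since no probe set analysed here was annotated to Gli1. RNA was measured on Affymetrix mouse 430 2.0 arrays at gestational day 18, in 4 wild-type and 4 Cox-1 KO female mice, 1 mouse to an array. Cox-1, encoded by Ptgs1, is a cyclooxygenase that starts prostaglandin synthesis, and the Cox-1 KO mice lacked it in every tissue. The labels give the wild-type mice as C57BL/6 and the Cox-1 KO mice as C57BL/6 x Sv129, both 6 to 16 weeks old, so the deleted gene and the genetic background cannot be told apart. The tissue was whole uterus after removal of the fetuses, membranes and placentas, with muscle, stroma and epithelium together. In such bulk RNA, fewer cells of a type and less RNA per cell cannot be told apart.

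Hedgehog proteins are secreted ligands. In their absence the receptor Ptch1 holds the membrane protein Smo inactive, and Sufu keeps the Gli factors from activating genes. Ligand binding to Ptch1 releases Smo, Gli2 acts mainly as an activator and Gli3 mainly as a repressor in its processed form, and Gli1 is both a factor of the pathway and a target of it. Ptch1 and Hhip are targets too and act as brakes, since both bind the ligand and limit its reach. In the uterus Ihh is made by the epithelium under progesterone and acts on the stroma below, which holds Ptch1, Gli factors and the nuclear receptor Nr2f2.

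The question put to these genes was whether their signals differed between Cox-1 KO and wild-type uterus near term. The study searched the promoters of its candidate genes for Gli sites, which is a reason to look at the level of the pathway itself. It had looked at part of that level. The study reported no significant difference in Ihh, which it took as a progesterone-regulated gene, and stated that Gli3 did not differ in the Cox-1 KO mice. The RefSeq promoter windows (GRCm38.p6, 250 bases before to 50 bases after the start of the gene) held 7 of the 8 genes, and Gli1 was not among them. The consensus Gli site GACCACCCA was searched on both strands, and so were its inner letters ACCACCC, which every match of the longer motif also holds. The longer motif was in 0.253% of all 32851 windows and the shorter one in 4.61%. Neither was in the windows of Hhip, Ptch1, Ihh, Smo, Gli3 or Sufu. The shorter one was in the window of Gli2, 205 bases before the start and on the opposite strand. Of Ptgs1 and the 9 candidate genes of the study, the windows of Ptgs1, Jchain, Gzme, Tnfrsf9, Klk1, Cftr and Atp8a1 held neither motif, and Arg1, Gem and Tnni2 had no window. No match says only that these letters are not in this window. The study's own search, for putative sites conserved in mouse and human, listed Gli sites for Arg1, Gem, Cftr, Atp8a1, Tnni2 and Cox-1. It used another method, so the windows here do not bear on those sites. The 250 bases before the start are shown for Hhip and Ptch1, the targets among the 8 core genes that were measured, and for Gli2, with the match in capitals; all 3 genes lie on the minus strand and are written 5′ to 3′ along the gene.
Hhip, chr8:80058009-80058258: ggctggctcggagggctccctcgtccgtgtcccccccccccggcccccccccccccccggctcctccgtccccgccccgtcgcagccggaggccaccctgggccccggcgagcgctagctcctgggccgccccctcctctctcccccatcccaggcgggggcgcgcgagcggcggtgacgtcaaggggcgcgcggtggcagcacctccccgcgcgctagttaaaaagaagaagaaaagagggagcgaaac
Ptch1, chr13:63565736-63565985: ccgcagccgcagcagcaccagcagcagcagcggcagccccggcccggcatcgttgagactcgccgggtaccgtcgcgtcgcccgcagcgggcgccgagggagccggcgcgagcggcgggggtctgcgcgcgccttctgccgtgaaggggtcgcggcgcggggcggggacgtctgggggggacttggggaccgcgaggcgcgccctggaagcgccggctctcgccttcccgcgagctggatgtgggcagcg
Gli2, chr1:119053620-119053869: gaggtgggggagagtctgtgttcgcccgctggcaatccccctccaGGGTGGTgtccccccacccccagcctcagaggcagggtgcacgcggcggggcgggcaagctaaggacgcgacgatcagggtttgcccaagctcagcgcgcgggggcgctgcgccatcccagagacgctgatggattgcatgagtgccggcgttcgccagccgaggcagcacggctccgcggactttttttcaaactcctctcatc
All 3 windows are rich in G and C, with a GC content of 76% for Hhip, 78.4% for Ptch1 and 67.2% for Gli2.

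Signals were MAS5 intensities, scaled by the authors to a common target on each array, and the 8 arrays had median signals of 731 to 757. Ptgs1 had a signal of 7048 to 10756 on the wild-type arrays and of 76 to 136 on the Cox-1 KO arrays, as the labels give (limma, adjusted p = 5.66e-08). Smooth muscle and stroma, which make up the tissue, gave high signals on every array: Acta2, smooth muscle actin, lay at 59991 to 70074 in wild-type and at 66361 to 72540 in Cox-1 KO. The arrays fell apart in one respect that bears on the results below. Apoa1, an apolipoprotein of yolk sac and fetal liver, had signals of 183, 481, 505 and 55059 on wild-type arrays 1 to 4 and of 73950, 631, 65189 and 56615 on Cox-1 KO arrays 1 to 4. Of 15 listed genes of yolk sac and fetal liver 14 were measured, and their summed signal ran from 30621 to 307998 in wild-type and from 40841 to 465186 in Cox-1 KO. Among them Rbp4 was bright on every array, at 26827 to 32440 in wild-type and 34145 to 39535 in Cox-1 KO. It made up most of the lowest sum of each genotype, so the sums understate how far the arrays lie apart. Wild-type array 4 and Cox-1 KO arrays 1, 3 and 4 were high in these yolk sac transcripts, so the results with the lowest p-values are also given beside them. The 2 measured genes of trophoblast, of 6 listed, summed to 5696 to 18240 in wild-type and 13978 to 17499 in Cox-1 KO, and the fetal globin Hbb-y was under 100 on all arrays but Cox-1 KO array 4, where it was at 278.

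Of the 14 hedgehog probe sets, 0 passed an adjusted p of 0.05 in limma, against 3 of 26444 probe sets tested, or 0.0113%. At an unadjusted p under 0.05, 4 of the 14 passed (28.6%), against 8.81% of all probe sets. All 4 were higher in Cox-1 KO, a direction in which 3.69% of all probe sets passed at that level. They were 3 probe sets of Hhip and the probe set of Ptch1. Those of Hhip measure 1 gene on the same RNA, so the share of 28.6% is not one of separate results. Hhip 1438083_at and 1421426_at reached a signal of 100 on 0 and 1 wild-type arrays and on 4 Cox-1 KO arrays each. They thus met the filter described below through the genotype in which they were higher, and the share is no test of the pathway. The study's methods instead set thresholds on an unadjusted p (0.05) and on the fold between mean signals (1.5), and by these 1 of the 14 passed, an Hhip probe set, against 0.862% of all. With its p-values adjusted, the test of the methods called 0 of the 14. Over all 14, 9 were higher in Cox-1 KO by sign and 5 lower. The filter kept probe sets that reached a signal of 100 on 4 arrays or more, and all 14 passed it, but only 9 reached 100 on all 8 arrays. The other 5 were those of Ihh and Hhip. Signals are listed below in the order of arrays 1 to 4 of each genotype, and differences are Cox-1 KO minus wild-type on the log2 scale.

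**Figure D1:**
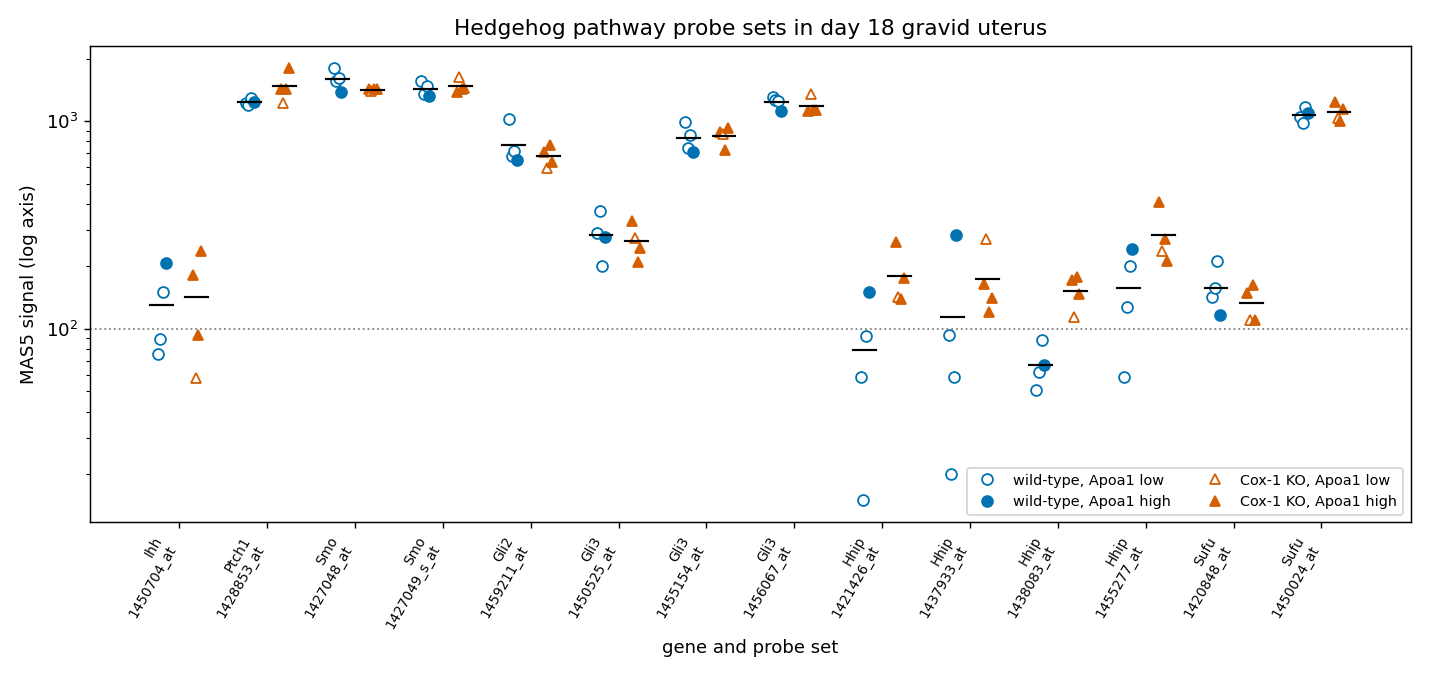
MAS5 signal (log axis) of the 14 hedgehog probe sets on each array, with wild-type as circles, Cox-1 KO as triangles, filled marks for the 4 arrays high in Apoa1, a bar at the mean of each genotype and a dotted line at a signal of 100. The genotypes lie apart for 1 probe set, Hhip 1438083_at, with Cox-1 KO from 114 to 177 and wild-type from 51 to 88, and Hhip and Ihh lie near or under the line.

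Hhip, the membrane protein that binds hedgehog ligand and withholds it from Ptch1, had the 4 largest differences by size among the 14 hedgehog probe sets. On 1438083_at the wild-type signals were 51, 62, 88 and 67 and the Cox-1 KO signals 172, 114, 177 and 147. Every Cox-1 KO array lay above every wild-type array, a separation that 1.5% of all probe sets tested had. The wild-type mean was 67 ± 15.5 (SD, n = 4), and the Cox-1 KO mean was 152.5 ± 28.8 (SD, n = 4). The difference was 1.19 on the log2 scale (95% interval 0.53 to 1.85), with an unadjusted p of 0.00215 and an adjusted p of 0.351 in limma. An exact permutation test gave its smallest two-sided p, 0.0286. No wild-type array reached a signal of 100, so the probe set passed the filter through the Cox-1 KO arrays alone and had to differ at that level; without a filter its adjusted p was 0.346. With signals under 100 set to 100 the difference was 0.59, or 1.5-fold. All 4 wild-type arrays then stood at 100 and all 4 Cox-1 KO arrays above it, so the sign of that value was fixed in advance.

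On Hhip 1455277_at the wild-type signals were 59, 127, 200 and 242 and the Cox-1 KO signals 408, 238, 271 and 212. Wild-type arrays 1 to 3 lay below every Cox-1 KO array, and wild-type array 4, the one high in Apoa1, lay among them. The difference was 0.99 (95% interval 0.10 to 1.87), with an unadjusted p of 0.0319 and an adjusted p of 0.541. On Hhip 1421426_at the wild-type signals were 59, 15, 92 and 150 and the Cox-1 KO signals 263, 143, 139 and 175. Here too wild-type array 4 alone lay among the Cox-1 KO arrays. The difference was 1.56 (95% interval 0.23 to 2.89, adjusted p = 0.538) and fell to 0.65 with signals under 100 set to 100. On Hhip 1437933_at the wild-type signals were 94, 20, 59 and 282 and the Cox-1 KO signals 165, 271, 120 and 141, with the highest signal of all on wild-type array 4. Its difference of 1.15 had an adjusted p of 0.634 and an unadjusted p of 0.108, and without wild-type array 2, at 20, it was 0.51.

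Genotype and yolk sac level were unevenly crossed, since Cox-1 KO arrays 1, 3 and 4 were high but only wild-type array 4. The Hhip differences were also set beside the yolk sac transcripts. With their mean level on each array as a covariate, the difference was 1.01 on 1438083_at (unadjusted p = 0.0204, adjusted p = 0.830), 0.88 on 1421426_at, 0.65 on 1437933_at and 0.54 on 1455277_at. The unadjusted p was above 0.05 on all but the first. On the 4 arrays low in Apoa1, Cox-1 KO array 2 lay above all 3 wild-type arrays on each Hhip probe set. The fit on these 4 arrays gave differences of 0.80 on 1438083_at, 1.06 on 1455277_at, 1.72 on 1421426_at and 2.50 on 1437933_at, with the lone Cox-1 KO array assumed to vary like the others. Against the fit on all arrays, the covariate thus gave smaller differences on each probe set. This fit gave a smaller one on 1438083_at only. On the 4 arrays high in Apoa1, wild-type array 4 was far below the 3 Cox-1 KO arrays on 1438083_at, at 67 against 172, 177 and 147, and among or above them on the other 3 probe sets.

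**Figure D2:**
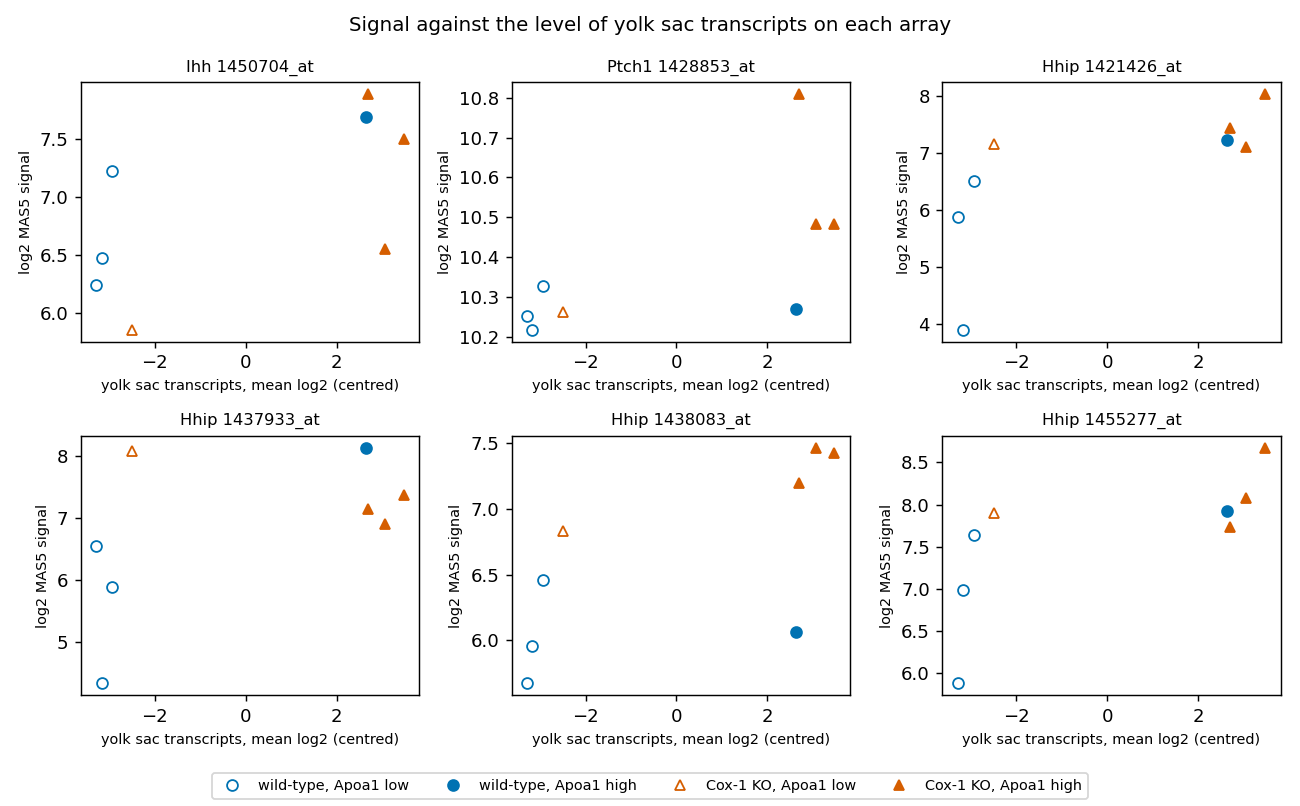
Log2 MAS5 signal of Ihh, Ptch1 and the 4 Hhip probe sets (vertical axes, each on its own scale) against the mean centred log2 signal of the yolk sac and fetal liver transcripts on the same array (horizontal axes), with marks as in the plot of signals by array. The arrays form a low set near -3 and a high set near 3, with wild-type array 4 in the high set at 2.64 and Cox-1 KO array 2 in the low set at -2.50, and the Cox-1 KO array of the low set lies above its 3 wild-type arrays on all 4 Hhip panels.

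Ptch1, the receptor and a classical target of the pathway, was measured by 1428853_at with signals of 1219, 1191, 1285 and 1235 in wild-type and 1432, 1229, 1432 and 1794 in Cox-1 KO. The wild-type arrays lay close together, and 3 of the 4 Cox-1 KO arrays lay above all of them. The means were 1232.5 ± 39.4 (SD, n = 4) and 1472 ± 235 (SD, n = 4), a ratio of 1.19. The difference was 0.24 on the log2 scale (95% interval 0.00 to 0.48), with an unadjusted p of 0.0468 and an adjusted p of 0.561 in limma. An exact permutation test gave a two-sided p of 0.0857. Cox-1 KO array 2, low in Apoa1, was at 1229, between the 3 low wild-type arrays, and without the arrays high in Apoa1 the difference was -0.00. With the yolk sac transcripts as a covariate it was 0.15 (unadjusted p = 0.246). Among the high arrays, wild-type array 4 was at 1235, below all 3 Cox-1 KO arrays.

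Ihh, the ligand of the uterine epithelium, gave a low signal on 1450704_at, of 76, 89, 150 and 207 in wild-type and 181, 58, 94 and 237 in Cox-1 KO. It reached 100 on 4 of the 8 arrays, 2 of each genotype, and the genotypes overlapped over nearly their whole range. The difference was 0.04 with a 95% interval of -1.0 to 1.08, which leaves room for a change of 2-fold in either direction (adjusted p = 0.986). With the yolk sac transcripts as a covariate it was -0.70 (unadjusted p = 0.131), and without the arrays high in Apoa1 it was -0.79 (unadjusted p = 0.239). Of the 10 listed markers of uterine epithelium all were measured, and their summed signal was 110555 to 140695 in wild-type and 134757 to 165514 in Cox-1 KO. All 10 were higher in Cox-1 KO by sign, with a median of 0.16, and 1 of them, Krt18, had an unadjusted p under 0.05 in limma. Their centred mean log2 signal was -0.44 on wild-type array 1 and 0.45 on Cox-1 KO array 1. On the other arrays it lay between -0.10 and 0.17. Foxa2, with the largest difference (1.02), was at 76, 94, 116 and 378 in wild-type and 717, 76, 377 and 255 in Cox-1 KO. It was highest on the 4 arrays high in Apoa1. The part of these markers in the Ihh signal was not tested.

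Smo, the membrane protein that passes the signal on, had differences of opposite sign on its probe sets. On 1427048_at the wild-type signals were 1810, 1554, 1604 and 1375 and the Cox-1 KO signals 1435, 1390, 1425 and 1427, a difference of -0.15 (adjusted p = 0.638). On 1427049_s_at they were 1556, 1349, 1475 and 1315 against 1388, 1631, 1420 and 1448, a difference of 0.05 (adjusted p = 0.893). Both pairs of groups overlapped, and the 95% intervals reached from -0.35 to 0.04 and from -0.14 to 0.24.

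Gli3, the main repressor among the Gli factors, had 3 probe sets with differences of -0.09, 0.05 and -0.06. On 1456067_at the wild-type signals were 1301, 1266, 1248 and 1122 and the Cox-1 KO signals 1124, 1354, 1128 and 1127, with a 95% interval of the difference from -0.27 to 0.14. Cox-1 KO array 2, low in Apoa1, was the highest of all 8, and the other 3 Cox-1 KO arrays lay beside wild-type array 4 at the low end. On 1455154_at the signals were 990, 745, 856 and 710 in wild-type and 888, 865, 727 and 923 in Cox-1 KO, and on 1450525_at they were 290, 369, 200 and 276 against 329, 274, 210 and 246. The genotypes overlapped on each, and the lowest adjusted p of the 3 was 0.863. Gli2, the main activator, had signals of 1028, 682, 715 and 653 in wild-type and 711, 597, 768 and 636 in Cox-1 KO on 1459211_at. The highest signal was on wild-type array 1, the rest of the groups overlapped, and the difference was -0.16 (95% interval -0.50 to 0.17, adjusted p = 0.773).

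Sufu, which restrains the Gli factors in the cytoplasm, was covered by 2 probe sets with differences of -0.23 and 0.04. On 1420848_at the signals were 142, 158, 212 and 117 in wild-type and 149, 110, 163 and 111 in Cox-1 KO (95% interval -0.80 to 0.35, adjusted p = 0.821). On 1450024_at they were 1046, 980, 1163 and 1097 against 1232, 1035, 999 and 1144 (95% interval -0.17 to 0.25, adjusted p = 0.927). The groups overlapped on both.

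**Figure D3:**
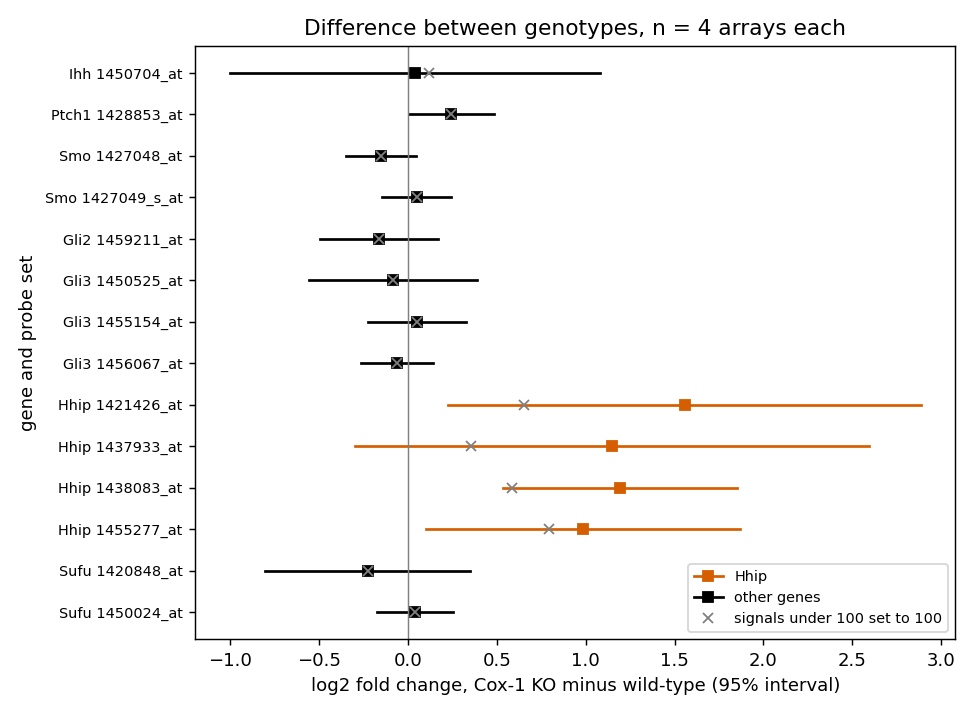
Difference between genotypes for the 14 hedgehog probe sets, as log2 fold change of Cox-1 KO minus wild-type (squares) with its 95% interval from limma, and the same difference with signals under 100 set to 100 (crosses). The 4 Hhip probe sets lie at 0.99 to 1.56, and at 0.36 to 0.80 with low signals set to 100, while the other 10 lie between -0.23 and 0.24.

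The probe sets of one gene share their RNA and arrays and are not replicates. By one probe set for each gene, the brightest, the 7 genes had a median difference of 0.04, beside a median of -0.03 over all probe sets tested. Of these genes, 4 were higher and 3 lower by sign.

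The levels of ligand and targets were also set against each other over the 8 arrays, for Ihh with Ptch1, Ihh with Hhip and Ptch1 with Hhip. Ihh and Ptch1 had a Pearson r of 0.598 (exact permutation p = 0.1) and a Spearman rho of 0.719 (exact permutation p = 0.0521). With the mean of each genotype taken out r was 0.766, and without the 2 arrays farthest from the median of Ihh it was 0.246. Leaving out the extremes of Ihh narrows its range, so the lower value cannot show what the relation rests on. Ihh and Hhip had an r of 0.445 (exact permutation p = 0.29) and a rho of 0.381 (exact permutation p = 0.36). Their r was 0.55 with the genotype means taken out and 0.729 without the 2 arrays. Ptch1 and Hhip, both targets, had an r of 0.399 (exact permutation p = 0.292) and a rho of 0.611 (exact permutation p = 0.117), and an r of -0.02 with the genotype means taken out and 0.513 without the 2 arrays farthest from the median of Ptch1. Adjusted over the 3 pairs, the permutation p of each r was 0.292. The arrays high and low in Apoa1 number 4 each, too few for a value within them.

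The other genes of the pathway were taken from lists by role, each gene by its brightest probe set. None passed the adjusted threshold in limma. Among the genes of ligand production and release 5 of 8 were measured, 2 higher and 3 lower by sign, with a median of -0.10, and 1 had an unadjusted p under 0.05. It was Scube2, a secreted carrier that helps release lipid-bearing hedgehog from cells, at 1426, 990, 1123 and 849 in wild-type and 1005, 794, 791 and 633 in Cox-1 KO. The groups overlapped, and the difference was -0.44 (unadjusted p = 0.0272, adjusted p = 0.538). It was -0.55 without the arrays high in Apoa1 and -0.32 with the yolk sac transcripts as a covariate. Dhh, another ligand, differed by -0.16 (adjusted p = 0.855), and Disp1, which exports the ligand, by -0.10 (adjusted p = 0.901).

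Among receptors and co-receptors 7 of 8 were measured, 3 higher and 4 lower by sign, with a median of -0.03. Gas1, a co-receptor that helps ligand bind Ptch1, had signals of 22217, 22045, 20662 and 17795 in wild-type and 11587, 20091, 15159 and 16333 in Cox-1 KO on 1416855_at, a difference of -0.41 (unadjusted p = 0.0129, adjusted p = 0.526). Wild-type array 4 and Cox-1 KO array 2 were the arrays at which the groups overlapped. The difference was -0.17 with the covariate and -0.11 without the arrays high in Apoa1, and a second Gas1 probe set, 1448494_at, gave -0.14.

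Gpc3, a glypican that binds hedgehog and competes with Ptch1 for it, was at 573, 462, 436 and 3143 in wild-type and 5451, 517, 4303 and 3401 in Cox-1 KO, a difference of 1.71 (unadjusted p = 0.0473, adjusted p = 0.561). Lrp2, an endocytic receptor that takes up hedgehog ligand among others, was at 108, 92, 119 and 1876 in wild-type and 3727, 128, 2048 and 1953 in Cox-1 KO on 1452320_at, a difference of 2.44 (unadjusted p = 0.0514). For both genes the 4 arrays high in Apoa1 were the 4 high arrays, of either genotype. With the yolk sac transcripts as a covariate the differences were -0.00 for Gpc3 and -0.07 for Lrp2, and on the arrays low in Apoa1 they were 0.09 and 0.28.

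Of the 23 listed genes of signal transduction and the primary cilium, where Smo and the Gli factors are processed, 21 were measured. They held 7 higher and 14 lower by sign, with a median of -0.05. By the brightest probe set 0 had an unadjusted p under 0.05 in limma. On that basis the lowest p-values belonged to Rab23, a small GTPase that restrains the pathway (-0.18, adjusted p = 0.593), Dyrk2, a kinase that acts on Gli proteins (0.21, adjusted p = 0.601), and Cul3, a ubiquitin ligase scaffold that acts with Spop (0.08, adjusted p = 0.710). Some dimmer probe sets, picked after their values were seen, had an unadjusted p under 0.05 in limma, all lower in Cox-1 KO. They were Rab23 1454876_at (-0.34, adjusted p = 0.526), Prkacb 1420610_at (-0.31, adjusted p = 0.526), Csnk1a1 1437923_at (-0.27, adjusted p = 0.538) and Spop 1416525_at (-0.13, adjusted p = 0.561). Of all 26444 probe sets tested, 1355 were lower at that level and 975 higher. The shared direction of these picked probe sets is thus no result about the pathway.

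Of 16 listed transcription targets other than Ptch1, Gli1 and Hhip, 13 were measured, 7 higher and 6 lower by sign, with a median of 0.01. Ccnd1, the cell cycle gene of cyclin D1, was at 6017, 5845, 5828 and 5646 in wild-type and 5275, 5290, 4515 and 4722 in Cox-1 KO on 1448698_at. All Cox-1 KO arrays lay below all wild-type arrays, a separation whose share over all probe sets was not taken. At an unadjusted p under 0.05 in limma, 1355 of the 26444 probe sets tested were lower in Cox-1 KO and 975 higher. The Ccnd1 difference was -0.24 (unadjusted p = 0.00386, adjusted p = 0.422), opposite in sign to those of Hhip and Ptch1. It was -0.19 with the covariate (unadjusted p = 0.0336) and -0.16 without the arrays high in Apoa1. Osr1, a zinc finger factor, differed by -0.48 (adjusted p = 0.596), and Hsd11b2, which inactivates glucocorticoids, by -0.14 (adjusted p = 0.677).

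Of the 15 listed genes that work with Ihh in the uterus 14 were measured, 6 higher and 8 lower by sign, with a median of -0.01. Nr2f2, the nuclear receptor that answers Ihh in the stroma, was at 2711, 2491, 2564 and 2402 in wild-type and 2005, 2323, 2045 and 2240 in Cox-1 KO on 1416158_at. All Cox-1 KO arrays lay below all wild-type arrays, a separation whose share over all probe sets was again not taken. The difference was -0.24 (unadjusted p = 0.00805, adjusted p = 0.489) and -0.16 with the covariate. The 5 probe sets of Nr2f2 did not all run one way, since 1444229_at differed by 0.38 (unadjusted p = 0.1) and the other 4 by -0.24 to -0.09. Wnt4, a secreted factor of stroma at decidualization, was at 526, 670, 760 and 448 in wild-type and 928, 888, 676 and 765 in Cox-1 KO on 1450782_at, a difference of 0.46 (unadjusted p = 0.0216, adjusted p = 0.531). A second Wnt4 probe set, 1441687_at, was at 458, 395, 508 and 513 against 748, 608, 550 and 729. All Cox-1 KO arrays lay above, as for 1.5% of all probe sets tested, and it differed by 0.49 (unadjusted p = 0.00464, adjusted p = 0.423). The Wnt4 difference was 0.46 on 1450782_at without the arrays high in Apoa1 and 0.65 with the covariate (unadjusted p = 0.00393). Esr1, the estrogen receptor, differed by -0.16 on 1460591_at (unadjusted p = 0.0339, adjusted p = 0.544) and by -0.08 with the covariate. Its dimmer probe sets differed by -0.51 (1421244_at, unadjusted p = 0.0224, adjusted p = 0.534) and -0.24 (1435663_at, unadjusted p = 0.0244, adjusted p = 0.538).

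**Figure D4:**
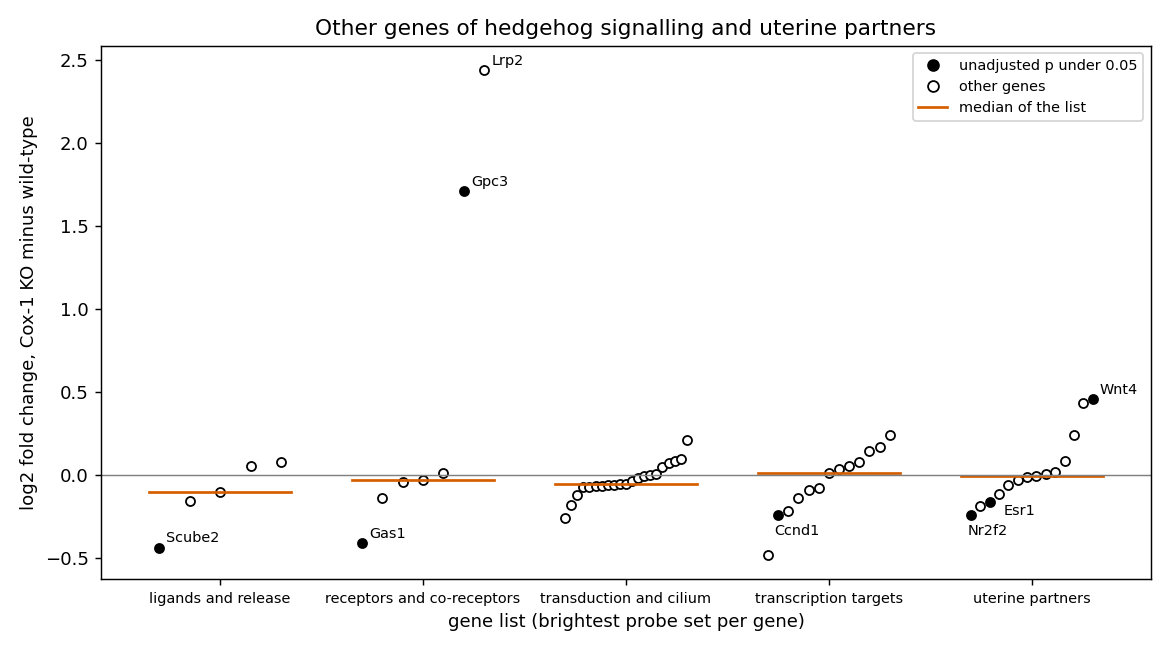
Log2 fold change of Cox-1 KO minus wild-type (vertical axis) for the measured genes of 5 lists by role (horizontal axis), 1 point a gene by its brightest probe set, filled where the unadjusted p was under 0.05, with the median of each list as a line. The medians lie between -0.10 and 0.01, and Gpc3 at 1.71 and Lrp2 at 2.44 stand apart from the other genes.

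Markers of the cells that receive the ligand overlapped between the genotypes in their summed signals. The 8 stromal markers, all measured, summed to 266111 to 287692 in wild-type and 269708 to 287297 in Cox-1 KO, with a median difference of -0.01. For the 7 smooth muscle markers the sums were 258644 to 294404 and 272341 to 294639, with a median of -0.05. Of 6 decidual markers 5 were measured, with sums of 91952 to 120091 and 107189 to 134863 and a median of 0.03. That median is the value of Dcn, which is also among the stromal markers and had mean signals of 66190 and 67511. Bmp2 differed by 0.44 (limma, unadjusted p = 0.0765) and Prl8a2 by 0.41 (limma, unadjusted p = 0.129). Alpl differed by -0.03 and Cryab by -0.01.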

How the data were processed

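Probe set signals come from Affymetrix Microarray Suite 5 (MAS5), run by the authors, with every array brought to a target of 1000. The deposited values are these intensities on a linear scale for 28000 probe sets, with no detection calls. The rule that selected these 28000 is not given in the sources used here. The 60 array controls were left out. Signals under 1 (1 value) were set to 1 and taken to log2, with no further normalization, and probe sets at 100 or more on at least 4 arrays were fitted with limma 3.58.1 in R 4.3.3 (moderated variances, trend on mean signal). The Benjamini-Hochberg adjustment ran over all 26444 probe sets kept, and intervals are 95% intervals of that fit. Exact permutation tests ran over all assignments of the 8 arrays, two-sided, on log2 signal, in Python 3.11.15. The number of arrays limits the precision, and pairs of arrays correlated at 0.944 to 0.982.

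Symbols are those of the platform annotation (23579 probe sets with a single symbol, 653 with several and 3768 with none). It pairs no probe set with Ptgs1, which was read from 1436448_a_at, named in the additional file of the study. That file also names Hhip 1438083_at. The methods' t-test was run on log2 signal with unequal variances. Members and lists were chosen with earlier results of these data known. Named genes are all hedgehog probe sets, Ptgs1 and the 3 genes of lowest p in each list; genes most like Ptch1 and Hhip follow a fixed rule. Values of other probe sets of Gas1, Nr2f2, Wnt4, Esr1, Rab23, Prkacb, Csnk1a1 and Spop were added after they were seen. So were those of Hbb-y, Krt18, Foxa2, Rbp4, Acta2 and the single decidual markers. The study's methods give an age of 8 to 16 weeks and 129P2 in place of Sv129. Alternatives were the yolk sac covariate, arrays left out, a replicate block, the methods' thresholds, an offset of 32, low signals set to 100, a filter at 200 or none, array weights, a robust fit, a fit with no trend, and quantile normalization or median centring. The 14 yolk sac genes measured, all higher in Cox-1 KO by sign, had a median difference of 3.75. Leukocyte markers (3 measured of 5) had a median of -0.07, endothelial markers (4 of 4) one of -0.12, and of 5 fetal erythroid genes only Alas2 was measured, at 0.90. The columns hold signals only.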

Additional observations from a re-analysis of the deposited data

Results flagged for a closer look

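Among the 28 groups of 4 arrays, 1 for each hedgehog probe set and genotype, 1 held an array far from the others. On Gli3 1456067_at, Cox-1 KO array 2 was at 1354 and the other 3 arrays at 1124, 1128 and 1127, a gap of 0.981 of the range of the group. Chance flags about 1 in 20 such groups. This array is the one Cox-1 KO array low in Apoa1, at a signal of 631.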

How the results depend on the processing

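The number of hedgehog probe sets past the adjusted threshold stayed at 0 in every alternative fit of limma and in the methods' t-test, and was 1 by the methods' thresholds on p and ratio. The number with an unadjusted p under 0.05 was 4, and it was 2 with a filter at 200, where fewer low probe sets remain, 2 with no trend, 1 with the yolk sac covariate, 1 without the arrays high in Apoa1, 1 by the methods' t-test and 1 to 5 with each array left out (1 without Cox-1 KO array 1, 2 without wild-type array 1, wild-type array 2 or Cox-1 KO array 3); the cause was not tested. Over all probe sets 3 passed the adjusted threshold, against 10 with an offset of 32, 12 with low signals set to 100, 11 with median centring, 6 with a robust fit, 18 with array weights, 6 without the arrays high in Apoa1, 228 by the methods' thresholds and 2 to 25 with each array left out (25 without wild-type array 1, 9 without Cox-1 KO array 2 or array 4).

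The difference of Ptch1 reversed to -0.0024 without the arrays high in Apoa1, and that of Gpc3 to -4e-04 with the yolk sac covariate. Of 275 values of the 14 probe sets under the alternatives, 257 kept their sign and their side of the threshold, and 17, of 6 probe sets in all, were sign changes of differences that had not passed it. The 4 Hhip probe sets kept their sign throughout, at 1.07 to 1.33 for 1438083_at and 0.51 to 1.79 for 1437933_at with each array left out. They did not all vary together from array to array. Over the 8 arrays their 6 pairs had an r of 0.377 to 0.859, and of -0.201 to 0.816 with the genotype means taken out. Of 300 values of the named list genes 294 were the same. The medians of all 15 lists moved by less than their residual SD when a gene stood for the average of its probe sets.

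The replicate numbers showed no clear pairing: arrays of the same number deviated together at r of -0.254, 0.219, -0.181 and 0.165, and 2 of 8 arrays correlated best with their own number. The study's methods state that samples were processed side by side in balanced groups. Yolk sac level also varied between the arrays of each genotype, so these values cannot exclude a pairing by handling. With the replicate block 3 of all probe sets passed, 0 hedgehog probe sets passed, and 3 had an unadjusted p under 0.05. Ihh and 3 of the Hhip probe sets lie near a signal of 100, and no detection calls were at hand to tell them from background.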

Other observations

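With the mean of each genotype taken out, the genes most like Ptch1 over the 8 arrays, of 22641 probe sets with a single symbol, were Dbi (r = 0.985), Kif22 (r = 0.980) and Trmt10b (r = 0.966). Those most like Hhip on 1455277_at were Niban1 (r = 0.989), Mindy3 (r = 0.984) and Cds2 (r = 0.978). These are the highest of many values over 8 arrays and are given as a description.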
